A study of Mus musculus with 10 samples.

Results

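The Hippo kinase core of mouse esophageal epithelium was examined as 10 genes, namely the kinase genes Stk3 and Stk4, the scaffold gene Sav1, the downstream kinase genes Lats1 and Lats2, their activator genes Mob1a and Mob1b, and the related kinase genes Stk38, Stk38l and Stk24. They were taken by symbol from a table of 56691 gene IDs, in which all 10 were found once. RNA had been sequenced from the Mst1/2 KO group, p63CreERT2;Mst1loxp/loxp;Mst2-/- mice, and from the WT group, with 5 libraries each. Tamoxifen was given to both, 3 times with 2 weeks in between and at 100 mg/kg each time, and RNA came from epithelium freed of muscle and mesenchyme about 8 weeks on. Mst1 and Mst2 are protein names here, and their genes are Stk4 and Stk3. Stk3 was deleted in all cells of the KO mice, whereas Stk4 was deleted by a tamoxifen-activated Cre named for the basal cell factor p63, so cells outside that lineage would keep it. No source used here gives strain, age, sex, the recombined share of cells, or whether WT mice carried Cre or were littermates, so effects of the Cre allele or of genetic background cannot be told apart from loss of the kinases. Nothing in the labels ties each library to its own mouse, so p-values measure the spread between these libraries, which may be technical.

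In mammals the kinases Mst1 and Mst2, bound to the scaffold Sav1, phosphorylate the kinases Lats1 and Lats2 and the adaptors Mob1a and Mob1b. Activated Lats then phosphorylates the coactivators YAP and TAZ and keeps them out of the nucleus. Stk38 and Stk38l encode NDR1 and NDR2, relatives of Lats that also bind Mob1, and Stk24 encodes Mst3, a kinase of the same superfamily as Mst1 and Mst2 that activates NDR kinases. The question was whether the partners and paralogs of the deleted kinases changed in level.

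The libraries held an estimated 13060000 to 16440000 fragments. Values were in FPKM, fragments scaled to gene length and library total. As the annotation release is not stated, the lengths used are not known. Levels of different genes can be set side by side only as far as those lengths hold. Differences were tested with limma on log2(FPKM + 1), which understates changes of low genes, over the 11386 genes that reached 1 FPKM in 5 or more libraries. Of these 12.9% passed the threshold (Benjamini-Hochberg adjusted p under 0.05), 7.9% as higher and 4.96% as lower in KO. Higher genes made up 61.4% of these calls, 50.8% under median-ratio scaling and 47.9% with quantile normalization. The squamous marker Krt13 lay at 33902 to 38777 FPKM in KO and at 34632 to 38781 FPKM in WT libraries. Trp63, the gene of p63, fell, with 18.15 to 27.88 FPKM in KO against 31.24 to 46.53 FPKM in WT (log2 difference -0.76; limma adjusted p = 0.00293), and the part of this in the results was not tested. Of the markers of other cells, Col1a2, Pdgfrb, Cdh5, Kdr, Emcn, Cldn5, Des and Myh2 were listed at 0 in all 10 libraries, and 9 of 10 fibroblast, 9 of 10 endothelial, 8 of 10 muscle and 8 of 12 T-cell markers were under 0.5 FPKM in every library. The highest marker on the fibroblast list was Dcn, a proteoglycan gene that fell, with 0.06 to 1.12 FPKM in KO against 4.42 to 13.55 FPKM in WT. On the T-cell list it was Cd5, a surface receptor gene, with 5.11 to 6.71 FPKM in KO against 5.2 to 7.72 FPKM in WT. On the list for Langerhans and other myeloid cells, of which 2 of 11 were under 0.5 FPKM throughout, it was Cd74, an antigen presentation gene, with 3.96 to 14.2 FPKM in KO against 4.33 to 28.32 FPKM in WT.

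Sequence similarity decides how far reads of such relatives can be told apart. The coding sequences of Stk3 and Stk4 (1494 and 1464 bases in GENCODE M21, GRCm38) are identical at 75.4% of aligned bases, and the longest stretch they share, printed in capitals with 20 bases on either side from the coding strand, has 23 bases.
Stk3 coding bases 266 to 328: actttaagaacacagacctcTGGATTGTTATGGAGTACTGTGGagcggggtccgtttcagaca
Stk4 coding bases 275 to 337: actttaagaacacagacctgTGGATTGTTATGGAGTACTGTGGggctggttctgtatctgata
No 31-base stretch of Stk4, Mob1a or Stk24 occurs in another annotated gene, and for Stk3, Lats1, Mob1b and Stk38 the share of such stretches was 1.19%, 0.33%, 0.83% and 1.96%. The longest shared run was 22 bases for Lats2 and Lats1, 20 bases for Mob1b and Mob1a, and 17 bases for Stk38l and Stk38. The other members are less distinct. Lats2 shares 41.8% of its 31-base stretches with other genes, nearly all with Gm49361, a gene model on the same strand that overlaps it and is listed at 0 in all 10 libraries. Sav1 shares 25% with others, nearly all with Atl1 on the opposite strand, which had 0.3 to 0.6 FPKM in KO and 0.48 to 0.59 FPKM in WT libraries. How reads in such places were assigned, and whether strand was used, is not stated, so the levels of Lats2 and Sav1 are uncertain. Stk38l shares 22% of its stretches with Gm3555 and Gm7451, processed pseudogenes on chromosomes 1 and 8, and is uncertain in the same way.

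Of the 10 core genes, Stk3 and Stk38l passed the test, both lower in KO, and the other 8 did not pass. The count of 2 in 10 includes a deleted gene and stands beside 4.96% of all tested genes called lower. An unadjusted p under 0.05 was reached by 3 of the 10, the third being Stk4, beside 29.7% of all tested genes. The groups did not overlap for 1 member, Stk3, beside 10.5% of all tested genes, 6.62% as higher and 3.88% as lower in KO. The median log2 difference of the 8 partners and paralogs was 0.10 and that of all tested genes 0.06. All 10 passed the filter on low values, Stk3 only through the WT libraries.

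**Figure D1:**
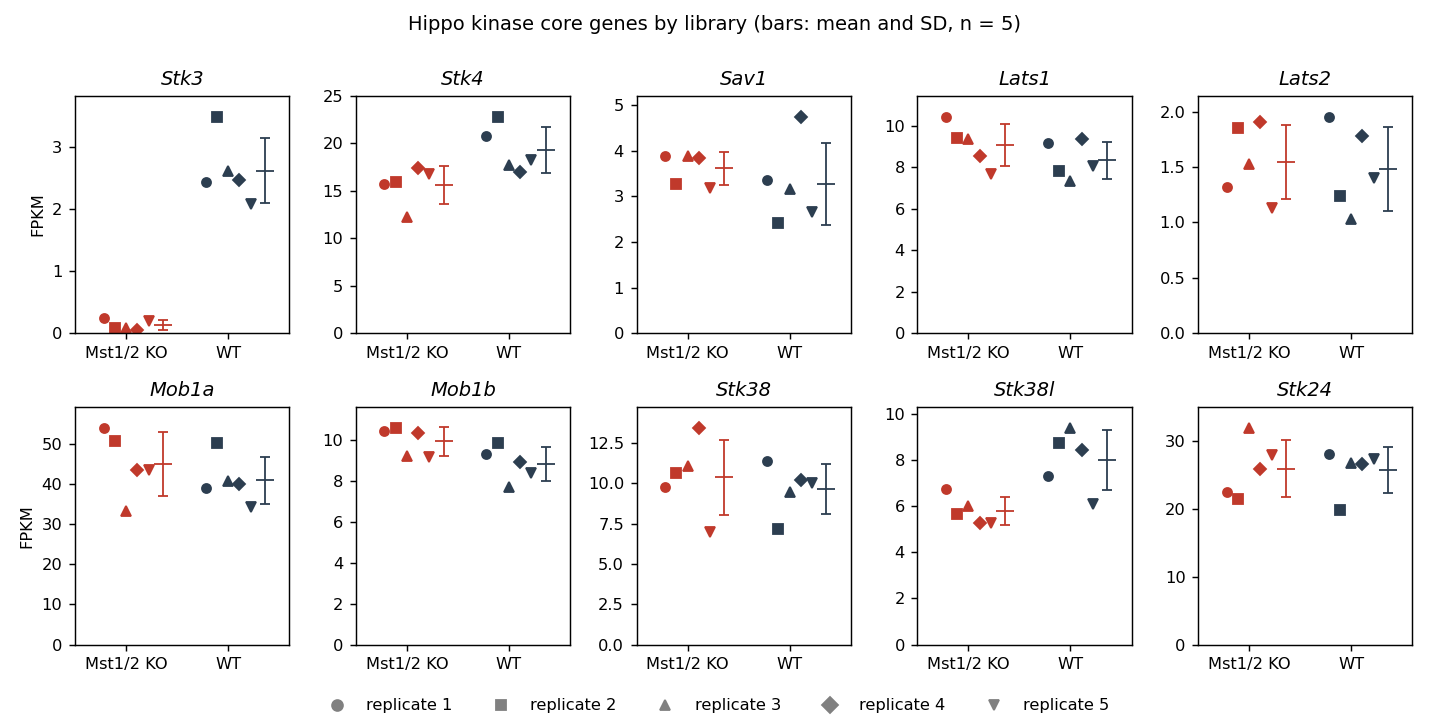
FPKM of the 10 core genes in each library, KO left and WT right of each panel, with a symbol per replicate number and a bar for mean and SD (n = 5 each). Stk3 is the one panel without overlap, with 0.05 to 0.25 FPKM in KO against 2.08 to 3.48 FPKM in WT.

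Stk3, which encodes Mst2 (ENSMUSG00000022329, chromosome 15), fell to near 0 in the KO epithelium. It had 0.25, 0.09, 0.08, 0.05 and 0.2 FPKM in KO libraries 1 to 5, against 2.44, 3.48, 2.61, 2.47 and 2.08 FPKM in WT libraries 1 to 5. Every KO library lay below every WT library, and KO 1 and KO 5 were the highest of the KO libraries. With the GENCODE length of 6114 bp and the estimated library totals, these levels correspond to about 4.22 to 19.96 fragments per KO library and 209 to 333 fragments per WT library, so the KO values rest on few reads. The level of 3 fragments, below which a value says little, was 0.0326 to 0.0376 FPKM in the KO libraries. Stk3 averaged 0.134 ± 0.0862 FPKM in KO and 2.62 ± 0.521 FPKM in WT (SD, n = 5 each). The log2 difference was -1.67 (SE 0.12; 95% interval -1.93 to -1.40; limma adjusted p = 2.78e-06) with a pseudocount of 1 and -3.59 with a pseudocount of 0.1. Stk3 was deleted in these mice and passed the filter only through the WT libraries, so this p-value is no independent support for a change. The remaining reads cannot be assigned to exons from a value summed over the gene.

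Stk4 (ENSMUSG00000018209, chromosome 2), the gene of Mst1, kept most of its transcript level. It had 15.75, 15.93, 12.22, 17.38 and 16.76 FPKM in KO libraries 1 to 5, against 20.76, 22.73, 17.66, 16.96 and 18.19 FPKM in WT libraries 1 to 5. Of the KO libraries 4 lay below every WT library, and KO 4 lay above WT 4. Stk4 averaged 15.6 ± 2 FPKM in KO and 19.3 ± 2.41 FPKM in WT (SD, n = 5 each), and its log2 difference of -0.29 (SE 0.12; 95% interval -0.54 to -0.03) had an unadjusted p of 0.0300 and did not pass (limma adjusted p = 0.123). The interval reaches down to a KO over WT ratio of 0.686 in FPKM + 1. No source used here names the deleted exons, and a value over the whole gene cannot show the loss of single exons, so this level is no check of the deletion. In bulk tissue fewer cells with a transcript and less transcript per cell cannot be told apart. T-cell markers summed to 6.47 to 8.26 FPKM in KO and 5.87 to 10.3 FPKM in WT libraries, and markers of Langerhans and other myeloid cells to 10.24 to 29.78 FPKM in KO and 10.42 to 50.83 FPKM in WT libraries. Most of the T-cell sum came from Cd5, and without it 0.77 to 2.04 FPKM in KO and 0.67 to 4.51 FPKM in WT remained. Without Cd74 the myeloid sum was 6.28 to 15.58 FPKM in KO and 6.09 to 22.51 FPKM in WT. The part of these cells in the Stk4 level was not tested.

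The row named Mst1 is not the kinase gene but that of macrophage stimulating 1, a gene of a secreted growth factor-like protein on chromosome 9. It had 10.23 to 17.49 FPKM in KO against 10.22 to 12.37 FPKM in WT and did not pass (limma adjusted p = 0.303).

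Stk4 gave most of the Mst1 and Mst2 transcript also in WT. Stk3 made up 0.287% to 1.56% of the summed FPKM of Stk3 and Stk4 in KO libraries, against 10.3% to 13.3% in WT libraries. The sum of both was 15.7 ± 2.02 FPKM in KO and 21.9 ± 2.81 FPKM in WT (SD, n = 5 each). In the other 3 pairs the shares overlapped between the groups. Lats2 made up 11.3% to 18.3% of the Lats pair in KO and 12.4% to 17.6% in WT. Mob1b made up 16.3% to 21.7% of the Mob1 pair in KO and 15.9% to 19.7% in WT. Stk38l made up 28.3% to 43.2% of the NDR pair in KO and 37.9% to 55.0% in WT, where it was above Stk38 in WT 2. As shared sequence leaves the levels of Lats2 and Stk38l uncertain, their shares are uncertain too. All shares also depend on the gene lengths used for scaling, which are not known. GENCODE exon lengths were 15033 bp for Mob1b against 4794 bp for Mob1a, and 4880 bp for Stk38l against 11560 bp for Stk38. They were closer for Stk3 and Stk4 (6114 and 5860 bp) and for Lats2 and Lats1 (6971 and 7297 bp).

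**Figure D2:**
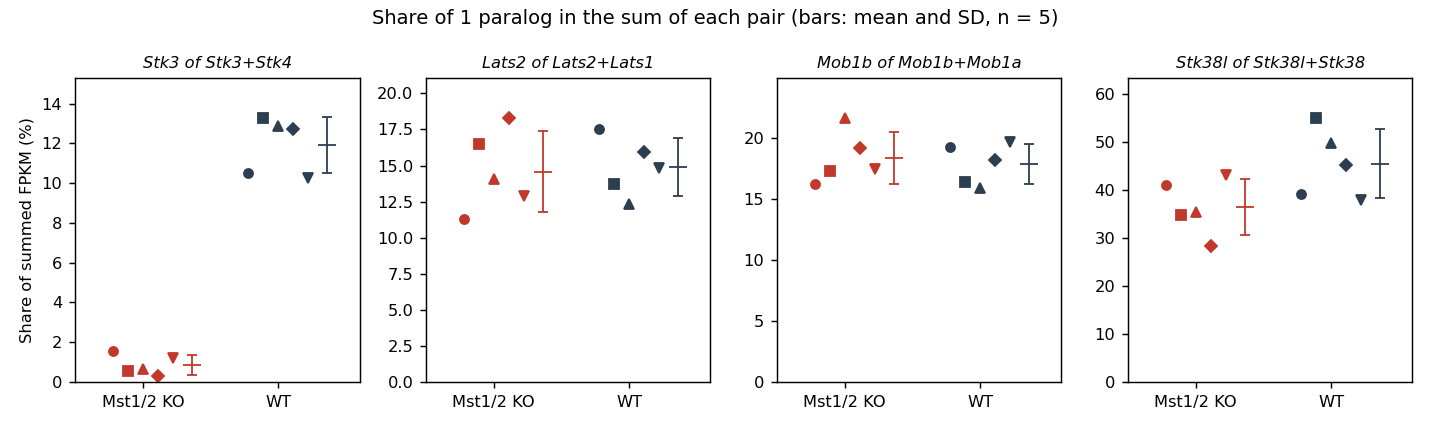
Share of Stk3, Lats2, Mob1b or Stk38l in the summed FPKM of its pair, in percent, for each library, KO left and WT right, with a bar for mean and SD (n = 5 each). The share of Stk3 separates the groups, at no more than 1.56% in KO and at least 10.3% in WT, and the other 3 shares overlap.

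The scaffold and the Lats kinases, direct partners and substrates of the deleted enzymes, did not pass the test. Sav1 (ENSMUSG00000021067, chromosome 12) had 3.87, 3.27, 3.89, 3.84 and 3.17 FPKM in KO libraries, all within the WT range of 3.35, 2.42, 3.15, 4.73 and 2.66 FPKM. Its log2 difference was 0.13 (SE 0.14; 95% interval -0.17 to 0.43; limma adjusted p = 0.554). Lats1 (ENSMUSG00000040021, chromosome 10) had 10.4, 9.39, 9.35, 8.53 and 7.66 FPKM in KO libraries, against 9.16, 7.81, 7.31, 9.37 and 8.03 FPKM in WT libraries. KO 1 and KO 2 lay above all WT libraries and the rest overlapped. The log2 difference of Lats1 was 0.11 (SE 0.10; 95% interval -0.12 to 0.33; limma adjusted p = 0.528). Lats2 (ENSMUSG00000021959, chromosome 14) is known as a target gene of YAP and TAZ as well as their inhibitor. By its listed values, which shared sequence leaves uncertain, Lats2 was the lowest member in WT. It had 1.32, 1.85, 1.53, 1.91 and 1.13 FPKM in KO libraries, all within the WT values of 1.95, 1.24, 1.03, 1.78 and 1.4 FPKM. The log2 difference of Lats2 was 0.04 (SE 0.14; 95% interval -0.25 to 0.34; limma adjusted p = 0.871), and with a pseudocount of 0.1, which weighs low genes more fully, the interval widened to -0.40 to 0.54.

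The Mob1 genes, whose products bind and activate Lats and NDR kinases, did not pass either. Mob1a (ENSMUSG00000043131, chromosome 6) had 53.83, 50.67, 33.31, 43.59 and 43.37 FPKM in KO libraries, against 39.07, 50.22, 40.69, 40.09 and 34.34 FPKM in WT libraries. KO 1 and KO 2 lay above all WT libraries and KO 3 below them, and the log2 difference was 0.13 (SE 0.14; 95% interval -0.18 to 0.43; limma adjusted p = 0.587). Mob1b (ENSMUSG00000006262, chromosome 5) had 10.47, 10.58, 9.21, 10.34 and 9.17 FPKM in KO libraries, against 9.31, 9.85, 7.69, 8.93 and 8.4 FPKM in WT libraries. Of the KO libraries 3 lay above every WT library. Its spread was the smallest of the members in both groups, with a coefficient of variation of 7.06% in KO and 9.41% in WT. The log2 difference of Mob1b was 0.16 (SE 0.09; 95% interval -0.04 to 0.36; limma adjusted p = 0.28). A p that misses the threshold does not show equal levels. Over the 7 partners and paralogs that did not pass, the intervals on log2(FPKM + 1) ran from -0.28 to 0.43 at their outer ends. With a clock output score as covariate, the intervals of Lats1 (0.02 to 0.43) and Mob1b (0.04 to 0.44) lay above 0. Neither passed (limma adjusted p = 0.127 and 0.101), and the intervals of the others included 0, that of Mob1a reaching 0.56.

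**Figure D3:**
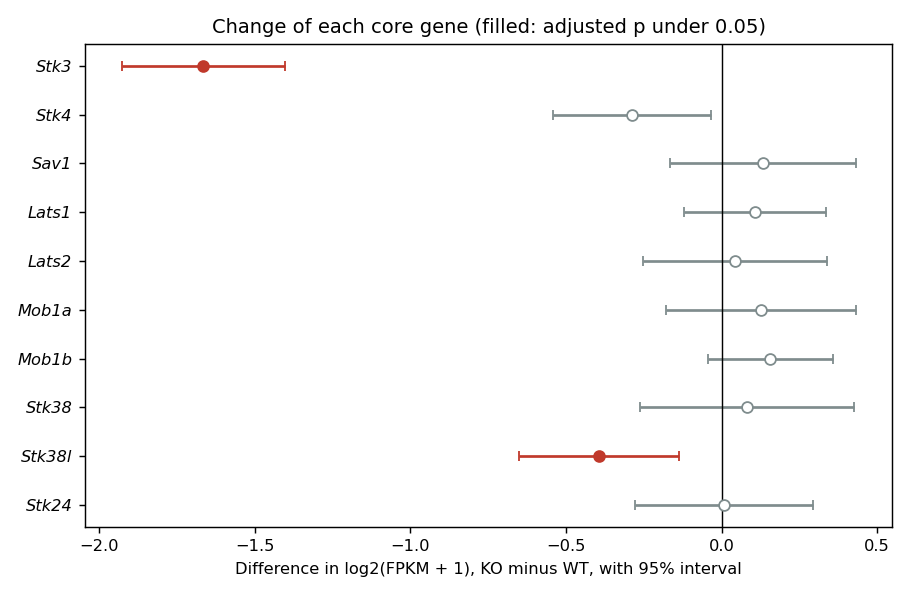
Difference in log2(FPKM + 1), KO minus WT, of each core gene with its 95% interval from limma (n = 5 each), filled where the adjusted p was under 0.05. Stk3 lies at -1.67 and Stk38l at -0.40, and the intervals of Sav1, Lats1, Lats2, Mob1a, Mob1b, Stk38 and Stk24 include 0.

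Among the more distant relatives, Stk38l, the gene of NDR2, was lower in KO by a call that rested on the libraries and on the treatment of its copies. Stk38l (ENSMUSG00000001630, chromosome 6) had 6.77, 5.69, 6.03, 5.28 and 5.29 FPKM in KO libraries 1 to 5, against 7.34, 8.76, 9.39, 8.44 and 6.11 FPKM in WT libraries 1 to 5. Of the KO libraries 4 lay below every WT library, and KO 1 lay above WT 5. Stk38l averaged 5.81 ± 0.62 FPKM in KO and 8.01 ± 1.3 FPKM in WT (SD, n = 5 each), with a log2 difference of -0.40 (SE 0.12; 95% interval -0.65 to -0.14; limma adjusted p = 0.0469). The call held without WT 5 (0.0246) or without KO 1 (0.0483) and was lost without each of the other 8 libraries, WT 1 to 4 and KO 2 to 5, where the limma adjusted p was 0.0702 to 0.104 and the log2 difference -0.42 to -0.34.

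Of the processed pseudogenes that resemble Stk38l, Gm3555 rose in KO and Gm7451 was too low to be tested. Gm3555 (1395 bp, chromosome 1) is identical to the Stk38l coding sequence at 98.6% of aligned bases and Gm7451 (1392 bp, chromosome 8) at 97.6%. The longest run shared with Gm3555 has 226 bases, shown in capitals within the Stk38l coding strand because a read inside it can come from either gene.
Stk38l coding bases 393 to 648: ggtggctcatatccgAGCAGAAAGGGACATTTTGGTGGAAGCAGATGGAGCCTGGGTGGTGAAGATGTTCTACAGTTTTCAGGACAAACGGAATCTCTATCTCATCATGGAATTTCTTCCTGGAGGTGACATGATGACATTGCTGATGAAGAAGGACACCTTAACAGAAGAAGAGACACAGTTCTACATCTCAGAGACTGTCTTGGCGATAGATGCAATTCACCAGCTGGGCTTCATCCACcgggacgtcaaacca
Gm3555 had 3.07, 2.58, 3.15, 2.18 and 2.9 FPKM in KO libraries, against 1.28, 1.37, 1.59, 1.58 and 1 FPKM in WT libraries, with no overlap. Its log2 difference was 0.68 (SE 0.11; limma adjusted p = 0.00277). Gm7451 had 1.37, 0.76, 0.98, 0.36 and 0.43 FPKM in KO libraries, against 0.33, 0.55, 0.5, 0.5 and 0.44 FPKM in WT libraries, and the groups overlapped. These copies were chosen after their values were seen. With the reads of both added to Stk38l, weighted by length, the sum lay between 6.01 and 8.04 FPKM in KO and between 6.52 and 9.99 FPKM in WT, and its log2 difference of -0.28 (95% interval -0.54 to -0.01) did not pass (limma adjusted p = 0.149). Whether reads moved between these loci was not tested.

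**Figure D4:**
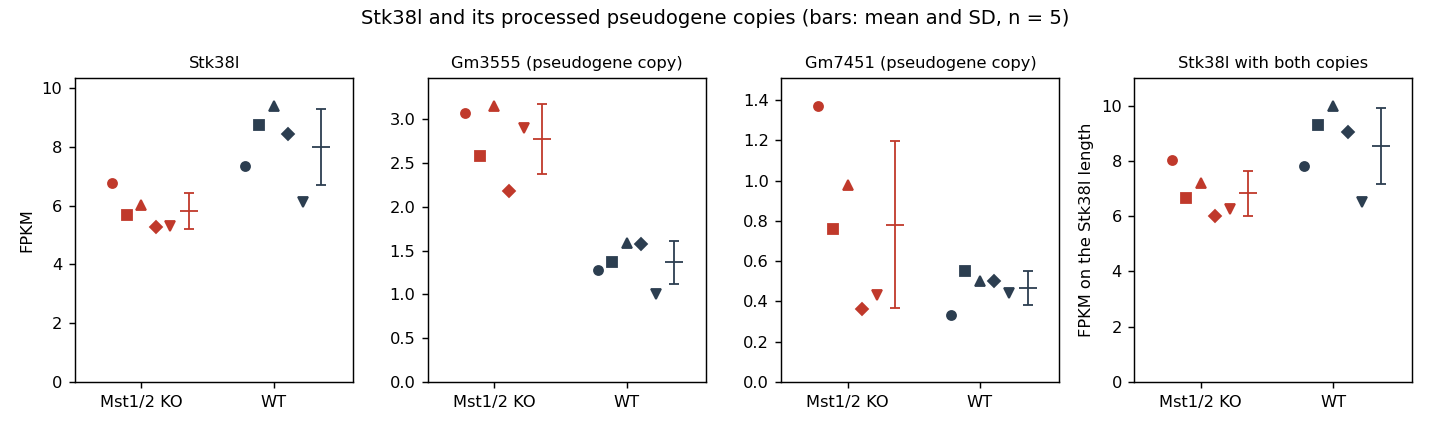
FPKM of Stk38l, of its pseudogene copies Gm3555 and Gm7451, and of Stk38l with the reads of both copies added on the Stk38l length, for each library, KO left and WT right, with a bar for mean and SD (n = 5 each). Gm3555 lies at 2.18 to 3.15 FPKM in KO and 1 to 1.59 FPKM in WT, while Stk38l is mostly lower in KO.

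Stk38 (ENSMUSG00000024006, chromosome 17), the gene of NDR1, had 9.75, 10.66, 11.05, 13.41 and 6.96 FPKM in KO libraries, against 11.36, 7.17, 9.44, 10.2 and 10.03 FPKM in WT libraries. The KO libraries held both the highest and the lowest value, and the log2 difference was 0.08 (SE 0.16; 95% interval -0.26 to 0.43; limma adjusted p = 0.767). Stk24 (ENSMUSG00000063410, chromosome 14) had 22.56, 21.44, 31.93, 25.96 and 28.04 FPKM in KO libraries, against 28.15, 19.84, 26.81, 26.69 and 27.46 FPKM in WT libraries. KO 3 lay above all WT libraries and WT 2 below all KO libraries, the rest overlapped, and the log2 difference of Stk24 was 0.01 (SE 0.13; 95% interval -0.28 to 0.29; limma adjusted p = 0.981). It was -0.032 under median-ratio scaling and -0.081 with quantile normalization. The libraries also differed in Dbp, a clock output gene, which was above 5 FPKM in 2 KO and 3 WT libraries and below it in 3 KO and 2 WT libraries. The log2 difference of Stk38l was -0.35 in the high-Dbp and -0.40 in the low-Dbp libraries, that of Stk4 -0.32 and -0.22, and that of Stk3 -1.69 and -1.59. The differences of Stk24, -0.16 and 0.07, and of Lats2, -0.04 and 0.18, had opposite signs in the classes of high and low Dbp. Those of Sav1, Lats1, Mob1a, Mob1b and Stk38 were positive in both. Whether any difference varied with Dbp was not tested.

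The order of levels was much alike in all libraries. Mob1a was the highest member in all 10, followed by Stk24 and Stk4, which overlapped in WT (19.84 to 28.15 and 16.96 to 22.73 FPKM) but not in KO (21.44 to 31.93 and 12.22 to 17.38 FPKM). Stk38, Mob1b, Lats1 and Stk38l formed a middle range from 5.28 to 13.41 FPKM in KO and from 6.11 to 11.36 FPKM in WT, in which neighbours overlapped. Sav1, Stk3 and Lats2 were the lowest in WT, where Sav1 (2.42 to 4.73 FPKM) overlapped with Stk3 (2.08 to 3.48 FPKM) and Stk3 lay above Lats2 (1.03 to 1.95 FPKM) in every library. In KO libraries Lats2 (1.13 to 1.91 FPKM) lay above Stk3 (0.05 to 0.25 FPKM). Shared sequence leaves the levels of Lats2, Sav1 and Stk38l uncertain, and with them their places in this order. The order of all members also depends on the gene lengths used for scaling.

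For Stk3 and Stk4 the closest profiles over the 10 libraries were sought among tested genes with named symbols. Predicted genes, Rik clones and pseudogenes were left out. Distance was Euclidean, on log2(FPKM + 1) minus the WT mean. By this measure a gene with a fall of similar size in KO lies close to Stk3 by construction. Closest to Stk3 were Ppp1r14c (0.65), Rerg (0.67) and Cyp2c66 (0.68), beside a median distance of 3.93 over the genes compared. They had log2 differences of -1.79, -1.63 and -1.47, beside -1.67 for Stk3, and lie on chromosomes 10, 6 and 19. Ppp1r14c, whose product inhibits protein phosphatase 1, had 0.91 to 1.78 FPKM in KO and 6.58 to 7.9 FPKM in WT. Closest to Stk4 were Pigg (0.29), Kdm4c (0.30) and R3hcc1l (0.34), beside a median of 1.20, and none of these passed the test (limma adjusted p = 0.246, 0.0779 and 0.16).

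The wider pathway was read through 65 further genes, of which 57 were tested. In KO 3 rose, 4 fell and 50 did not pass, so 12.3% were called, beside 12.9% of all tested genes. Their median log2 difference was -0.02. None of the 5 tested further kinases of the Mst superfamily passed, among them Slk with 37.9 to 45.2 FPKM in KO against 36.86 to 43.87 FPKM in WT (limma adjusted p = 0.497) and Oxsr1 with 22.9 to 25.9 FPKM in KO against 21.08 to 22.95 FPKM in WT (0.262). Kinases of the MAP4K and TAO families, which can activate Lats without Mst1 and Mst2, also did not pass in 8 of 8 cases. The most abundant, Mink1 and Taok1, had log2 differences of -0.22 and -0.29 (limma adjusted p = 0.415 and 0.162). The 6 ubiquitin ligases that act on Lats or Mob1 did not pass either. Nor did the 6 tested genes of YAP, TAZ and their transcription factors and cofactors, namely Yap1, Wwtr1, Tead1, Tead3, Tead4 and Vgll4. This last list was not one of YAP and TAZ target genes. Among the ligases Nedd4 and Wwp1 had log2 differences of -0.0048 and -0.24 (limma adjusted p = 0.986 and 0.0975). The groups did not overlap for Wwp1, with 16.61 to 20.62 FPKM in KO against 21.68 to 24.9 FPKM in WT. Over all tested genes 10.5% did not overlap. Yap1, the gene of YAP, had a log2 difference of -0.13 and Wwtr1, the gene of TAZ, one of -0.50 (limma adjusted p = 0.408 and 0.0644).

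Of 5 other Mob genes, all tested, 2 rose and 3 did not pass, beside 7.9% of all tested genes called higher. Mob3a rose with 11.88, 10.01, 11.88, 9.21 and 13.63 FPKM in KO against 7.17, 8.02, 10.34, 8.44 and 6.86 FPKM in WT, a log2 difference of 0.43 (SE 0.13; limma adjusted p = 0.0487). Mob3b rose with 2.26, 1.69, 1.69, 1.99 and 1.27 FPKM in KO against 1.45, 1.06, 0.97, 0.85 and 1.07 FPKM in WT (0.41, SE 0.12; limma adjusted p = 0.0468). For Mob3a KO 2 and KO 4 lay within the WT range, and for Mob3b KO 5 did. The call of Mob3a held without WT 3 or KO 4 and that of Mob3b without WT 1 or KO 5, and each was lost without any of the other 8 libraries (limma adjusted p = 0.0568 to 0.124 for Mob3a and 0.0628 to 0.105 for Mob3b). Mob3a was also not called under median-ratio scaling (0.0925) or quantile normalization (0.0899), without trended and robust variances (0.0528) or with the clock covariate (log2 difference 0.35; 0.119), and without a filter on low values neither was called (0.108 for Mob3a and 0.0924 for Mob3b). Mob3a shares 58.2% of its 31-base stretches with Gm26541 on the opposite strand, which leaves its level uncertain. Whether the change of Mob3a or Mob3b differs from that of Mob1a or Mob1b was not tested. Mob4 and Mob2, the most abundant of the list, had log2 differences of 0.14 and 0.01 (limma adjusted p = 0.439 and 0.979).

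The STRIPAK complex joins a PP2A phosphatase to striatin scaffolds and dephosphorylates Mst1 and Mst2. Of its 14 tested genes 1 rose and 1 fell, a share near the 12.9% called over all tested genes. Ppp2r1b, a scaffold subunit of PP2A, rose with 9.41, 7.81, 12.92, 9.96 and 11.14 FPKM in KO against 5.99, 5.78, 5.67, 7.02 and 5.49 FPKM in WT, with no overlap (log2 difference 0.67, SE 0.12; limma adjusted p = 0.0046). It shares 21.1% of its 31-base stretches with Sik2 on the opposite strand, and Sik2 had 0.91 to 1.31 FPKM in KO and 0.82 to 1.24 FPKM in WT. The more abundant scaffold subunit Ppp2r1a had 46.61 to 62.78 FPKM in KO and 47.09 to 65.2 FPKM in WT (limma adjusted p = 0.892). The catalytic subunit Ppp2ca had 83.64 to 90.55 FPKM in KO and 60.17 to 80.5 FPKM in WT, did not overlap and narrowly did not pass (log2 difference 0.33; limma adjusted p = 0.0517). Fgfr1op2, an accessory STRIPAK component, fell with 15.54, 15.16, 13.55, 14.25 and 13.56 FPKM in KO against 22.15, 24.97, 21.18, 23.07 and 20.33 FPKM in WT, with no overlap (-0.60, SE 0.09; limma adjusted p = 0.00125).

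Upstream scaffolds and regulators held 3 further falls among 14 tested genes and no rise, beside 4.96% of all tested genes called lower and 7.9% called higher. Rassf5, a protein that binds Mst1 through its SARAH domain, fell with 9.73, 14.76, 14.02, 19.62 and 12.64 FPKM in KO against 39.49, 19.01, 23.94, 25.73 and 35.17 FPKM in WT (log2 difference -0.95, SE 0.21; limma adjusted p = 0.0123). KO 4 lay above WT 2 and the other KO libraries lay below all WT libraries. Limd1, a LIM protein that can bind and inhibit Lats, fell with 5.6, 4.98, 3.88, 4.74 and 4.07 FPKM in KO against 9.35, 6.95, 6.86, 8.89 and 7.8 FPKM in WT, with no overlap (-0.67, SE 0.12; limma adjusted p = 0.00383). Frmd6, a FERM-domain regulator of the pathway, also fell (-0.41, SE 0.10; limma adjusted p = 0.0229), a call lost without WT 1 (0.0604), WT 5 (0.0642) or KO 1 (0.0557) and without a filter on low values (0.0523), and 17.2% of its 31-base stretches occur in Gm5780. Ajuba and Wwc1, the most abundant others of this list, did not pass (limma adjusted p = 0.561 and 0.366). Rassf5, Limd1, Ppp2r1b and Fgfr1op2 kept their calls without each single library. With the score of fibroblast, endothelial and muscle markers as a covariate none of the 7 was called. That score did not overlap between the groups, at 0.0686 to 0.118 in KO and 0.151 to 0.213 in WT, a gap that came mainly from Dcn. The score and genotype therefore cannot be told apart.

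**Figure D5:**
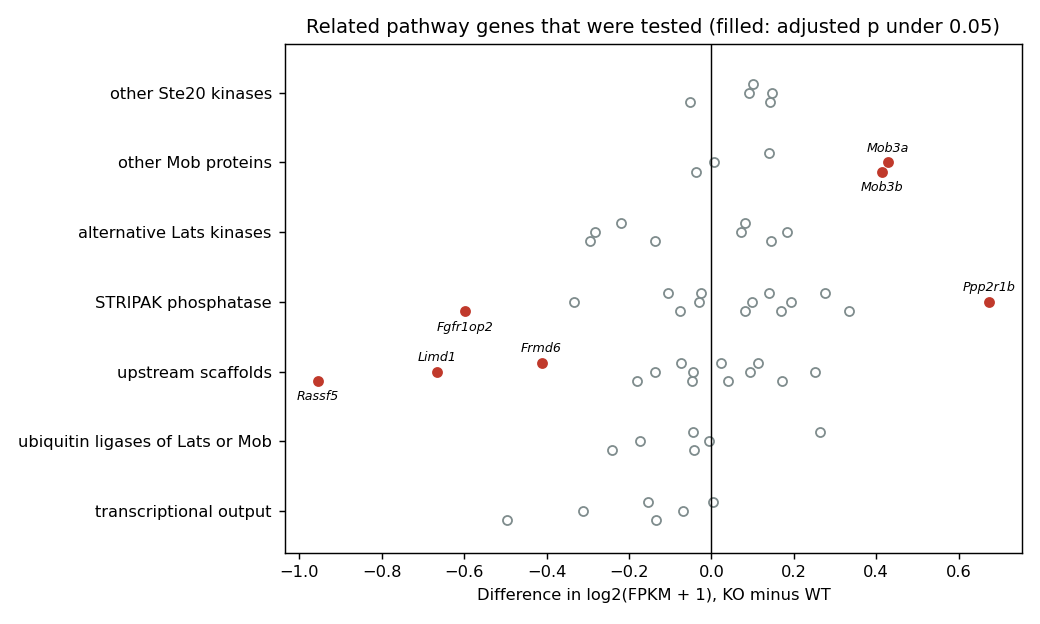
Difference in log2(FPKM + 1), KO minus WT, of the 57 tested related genes by list, filled and named where the limma adjusted p was under 0.05 (n = 5 each). The 7 called genes lie between -0.95 (Rassf5) and 0.67 (Ppp2r1b), with 3 higher and 4 lower in KO; Mob4 stands in 2 lists.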

How the data were processed

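RNA-seq of 10 esophageal epithelium libraries was used as a table of FPKM values (2 decimals) deposited by the authors. The submitters' processing notes name HTSeq 0.6.1, HISAT2 2.0.1 and cutadapt, and the mouse build mm9. Settings, annotation release, strand and the scaling total are not stated there. No count table was used here. Library totals were estimated as the number of fragments at which genes of 1 exon and at most 1200 bp get whole numbers. At these totals 97.9% to 98.4% of their values came out whole (tolerance 0.01 fragments plus rounding), beside 9.24% to 11.0% by chance. Lengths, chromosomes and 31-base stretches came from GENCODE M21 (GRCm38), which lists 52073 of the 56691 IDs. As that build is not mm9, no positions are given.

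All libraries entered limma 3.58.1 (R 4.3.3) on log2(FPKM + 1), with trended, robust variances and genotype as the only term, and p-values were adjusted by Benjamini-Hochberg across the 11386 genes. On simulated data with 11386 genes it recovered 0%, 20.5%, 89.5% and 97% of log2 changes of 0.25, 0.5, 1 and 2. Fewer genes were changed there than were called here, and the noise was independent between genes. These shares therefore need not hold for these data. Alternatives were other pseudocounts, filters and scalings, estimation without trend, library weights, a replicate block, covariates for clock output and for mesenchymal markers, another threshold, and each library left out. Biopython 1.88 aligned coding sequences. The members, lists and tests were chosen with earlier results of these data known. Named were all members, every called gene and the 2 most abundant of each related list, marker genes, and Mst1. The 3 genes closest in profile to Stk3 and to Stk4, among those with named symbols, were also named. Sequence-sharing genes, Dbp and the markers at 0 were named after their values were seen.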

Additional observations from a re-analysis of the deposited data

Results flagged for a closer look

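The value of Stk24 in WT 2, 19.84 FPKM, stood apart from the other WT libraries, which lay between 26.69 and 28.15 FPKM; the gap was 0.824 of the range of the group. It was the single such value among 28 groups of 5 that were checked, and chance marks about 1 group in 20. Stk24 was not called with this library (log2 difference 0.01) or without it (-0.081).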

How the results depend on the processing

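Stk3 kept its call and direction in each of the 20 alternatives in which it was tested, with log2 differences of -3.59 (pseudocount 0.1) to -0.57 (pseudocount 5), and Stk4 was not called in any of 21 (limma adjusted p = 0.0744 to 1.00). As Stk3 is a deleted gene that passed the filter only through the WT libraries, its kept call is no independent support. With a filter at 5 FPKM Stk3, Sav1 and Lats2 were not tested. The call of Stk38l ended without a filter (-0.40, adjusted p = 0.101), with library weights (-0.35, 0.0649), the clock covariate (-0.36, 0.0981), the marker covariate (-0.73, 0.657) and the added copies (-0.28, 0.149), and over single libraries left out the difference was -0.48 to -0.34. In those settings 1 core member was called, Stk3, and over libraries left out 1 to 2 were. The 5 FPKM filter also left 1, but this was Stk38l (limma adjusted p = 0.0419), as Stk3 was not tested. The replicate block, in which same-numbered libraries share only a number (correlations of -0.24 to 0.42), gave -0.40 for Stk38l with adjusted p = 0.0605 and 1 core member called; it also ended the calls of Mob3a (0.0750) and Mob3b (0.0576) and changed no other call of a core gene or of the 7 called related genes. Stk24 turned to -0.032 (median ratios), -0.081 (quantile), -0.042 (library weights) and -0.10 (clock covariate), and Mob1a to -0.0045 (marker covariate), all uncalled. Over libraries left out Lats2 ran from -0.026 to 0.11, Stk38 from -0.0098 to 0.20 and Stk24 from -0.081 to 0.070. The cause was not tested. Genes called over the table numbered 1465 and ran from 793 (without WT 5) to 1770, with 858 without WT 1 and 898 without KO 5; higher genes ran from 436 to 1091 beside 900, lower ones from 357 to 679 beside 565. The marker covariate left 46 (23 higher, 23 lower, 0 of the related lists), the threshold of 0.1 gave 2420, no filter 511 higher and 4 related genes, the 5 FPKM filter 329 lower, and library weights 1390 higher. Of the related genes 4 to 7 were called over libraries left out. Depth limits Stk3 in KO, and in the simulated data, with few genes changed, small changes were rarely recovered.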
